A study of Mus musculus with 22 samples.

Results

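The cadherins and protocadherins are surface proteins that hold cells together, and the genes described here are the protein-coding mouse genes whose symbol is Cdh followed by a digit or starts with Pcdh. The rule found 92 genes among the 39056 rows of the count table, matched by Ensembl identifier to GENCODE M21 on the mouse genome mm10 (GRCm38). Of the 92 genes, 57 belong to the clustered protocadherins, with 14 Pcdha, 22 Pcdhb and 21 Pcdhg genes, and 35 are non-clustered. The non-clustered genes were sorted by structure into 5 type I classical cadherins, 13 type II classical cadherins, 10 delta protocadherins, 5 other Cdh genes and 2 other protocadherins. A total of 83 genes held enough reads to be tested (at least 500 reads over the 22 libraries), which left out Pcdha4, Pcdha8, Pcdhb1, Cdh3, Cdh16, Cdh17, Cdh23, Cdh26 and Pcdh12.

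RNA came from the prefrontal cortex (PFC) of 11 male mice on a C57BL/6J background, 8 to 12 weeks old, which carried an EGFP-tagged ribosomal protein Rpl10a under a tetO promoter and the tTA activator under the CaMKIIα promoter. All groups carried both transgenes. Control mice (n = 3) received saline, EtOH mice (n = 4) received ethanol at 2 g/kg/day, and EtOH + ABT-888 mice (n = 4) received the same ethanol and, on day 4, the PARP inhibitor ABT-888 at 25 mg/kg. Injections were intraperitoneal, 2 a day, 2 hours apart, for 4 days, and tissue was taken 2 hours after the last one. Each mouse gave a TRAP library, the RNA bound to the tagged ribosomes and pulled down with them, and a total-RNA library from the same lysate. A mouse is a single animal in each group. No group received ABT-888 without ethanol, so an effect of ABT-888 alone cannot be told apart from that of its combination with ethanol.

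Classical cadherins bind the same cadherin on the neighbouring cell through their outer domains and hold the actin skeleton through catenins bound to their tails. Type I members such as Cdh2 (N-cadherin) sit at synapses and in many epithelia, and type II members mark layers and circuits of the brain in combinations. The clustered protocadherins are read from 3 gene arrays lying side by side, in which each gene has its own promoter and large first exon, and the genes of the alpha and gamma arrays share their last exons. Promoters are chosen by the looping protein CTCF and cohesin in a way that differs from neuron to neuron, while the C-type genes at the end of the alpha and gamma arrays are used more broadly, and the proteins give a neuron a label by which its own branches avoid each other. Delta protocadherins such as Pcdh10 and Pcdh19 are single genes that act in axon growth and synapse removal.

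Between 6570957 and 22002618 reads were counted in a TRAP library and between 22132534 and 32421392 in a total-RNA library. The 92 genes took 0.288% to 0.360% of the reads of a TRAP library and 0.320% to 0.355% of those of a total-RNA library. Marker genes of other cell types moved with the RNA pool. In Control mice the 6 astrocyte markers summed to 68.1 to 119 CPM (counts scaled to library size, after TMM normalisation) in TRAP and 1024 to 1087 in total-RNA, and the 6 oligodendrocyte, 6 microglia and 6 endothelial and mural markers were also lower in TRAP, each of them past the test. All 6 markers of striatal projection neurons were higher in TRAP, with sums of 6332 to 8189 CPM against 810 to 1025. The 6 inhibitory neuron markers summed to 1827 to 1913 CPM in TRAP and 802 to 865 in total-RNA, with Gad1, Gad2 and Slc32a1 higher in TRAP and Pvalb lower. Of the excitatory markers, Nrgn was higher in TRAP, Slc17a7, Tbr1 and Neurod6 were lower, and Camk2a, whose promoter drives the tag, had 1883 CPM against 2092 (adjusted p = 0.203). Together these 5 summed to 4801 to 6164 CPM in TRAP and 4050 to 4917 in total-RNA, which overlap. No marker gene was at 0 reads in a group.

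In total-RNA of Control mice the highest levels per kilobase came from delta protocadherins and C-type genes of the clusters. Pcdh9, a delta protocadherin, had 46.0 ± 1.5 CPM per kb (SD, n = 3), Pcdh7 had 37.1 ± 1.7 and Pcdhgc5, the last C-type gene of the gamma array, had 35.7 ± 1.6. Pcdh7 and Pcdhgc5 do not differ beyond their spread. Next came Pcdh10 with 29.8 ± 0.73 CPM per kb, then Pcdh1 with 20.7 ± 2.4, Pcdhac2 with 20.3 ± 2.4, Pcdhgc3 with 19.8 ± 2.1 and Cdh2 with 19.2 ± 1.4, which do not differ beyond their spread. In TRAP the order changed at the top, where Pcdhgc5 stood first with 64.7 ± 6.0 CPM per kb, ahead of Pcdh10 with 26.7 ± 1.6, the type II cadherin Cdh8 with 26.3 ± 1.9, Pcdh1 with 24.6 ± 2.4 and Pcdh7 with 24.4 ± 1.2. The 57 clustered genes had a median of 3.23 CPM per kb in TRAP and 2.75 in total-RNA, and the 35 non-clustered genes had 3.18 and 4.46. Levels per kilobase used the exonic bases that a gene shares with no other gene of its strand, since reads in the shared last exons were not counted to every alpha gene. With all exonic bases as the length, Pcdhgc5 had 39.1 CPM per kb in TRAP and was still first, and 21.5 in total-RNA, where it was in place 4 behind Pcdh10. By that length Pcdhgc3 had 12.15 CPM per kb in Control total-RNA, in place 10, and Pcdhac2 had 10.44, in place 14. The places of these C-type genes among the highest therefore depend on the length used.

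**Figure D1:**
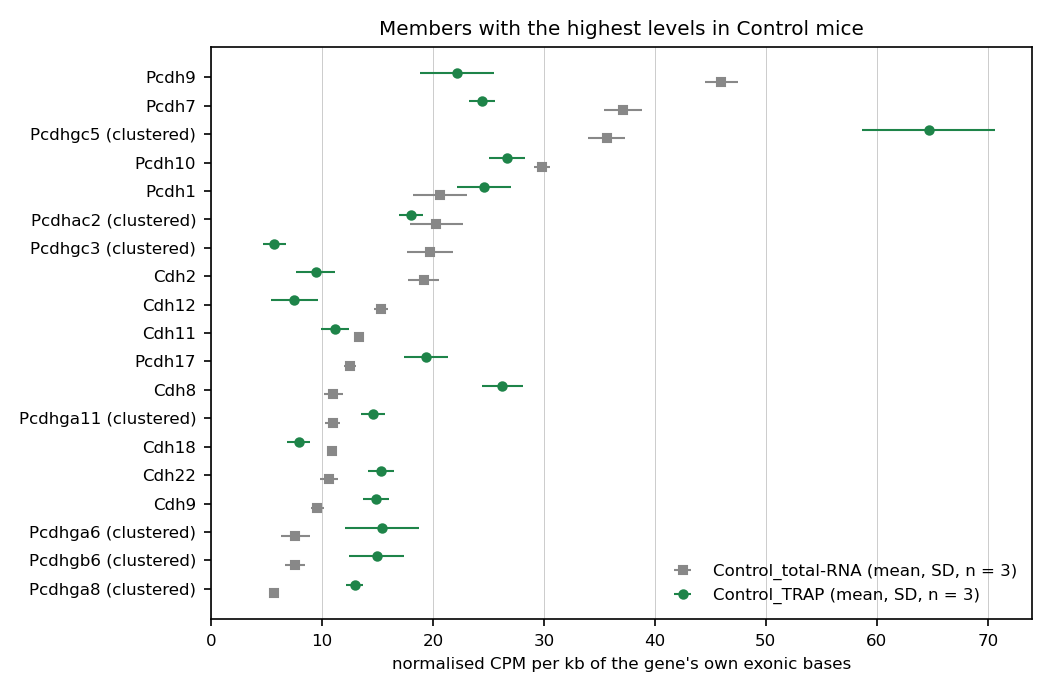
Normalised CPM per kb of a gene's own exonic bases (x axis) for the members with the highest levels (y axis) in Control mice, with points at the mean and bars for the SD over 3 mice, squares for total-RNA and circles for TRAP. Pcdhgc5 stands apart in TRAP at 64.7, while Pcdh9 and Pcdh7 lead in total-RNA at 46.0 and 37.1.

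The comparison of TRAP with total-RNA asks which transcripts were more or less abundant on the tagged ribosomes than in the tissue. In these bulk libraries, fewer cells of a type and less RNA per cell cannot be told apart. In Control mice 28 of the 83 genes were higher in TRAP and 18 lower (edgeR quasi-likelihood test, Benjamini-Hochberg adjusted p under 0.05 over 14072 genes). Among all 14072 genes, 29.5% were called higher, 30.4% lower and 59.9% in either direction. The clustered and the non-clustered genes leaned to opposite sides. Of the 54 clustered genes tested 22 were higher and 2 lower, with a median log2 fold change of 0.30, and of the 29 non-clustered genes 6 were higher and 16 lower, with a median of -0.48, beside a median of 0.02 over all genes. Under EtOH the clustered genes gave 20 higher and 3 lower and the non-clustered 6 and 15, where 24.3% of all genes were higher, 26.5% lower and 50.7% called. Under EtOH + ABT-888 they gave 20 and 2 and 4 and 14, where 19.5% of all genes were higher, 21.5% lower and 41.0% called.

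Each of the 11 mice gives its own ratio of TRAP to total-RNA. TRAP was above total-RNA in all 11 mice for 21 clustered genes (38.9% of the 54) and 5 non-clustered genes (17.2% of the 29), beside 24.5% of all genes tested. It was below in all 11 mice for 2 clustered genes (3.70%) and 14 non-clustered genes (48.3%), beside 26.7% of all genes.

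Within the clusters the gamma array carried most of the difference. In Control mice 14 of 21 Pcdhg genes were higher in TRAP and 2 lower (median log2 fold change 0.76), against 7 of 21 Pcdhb genes higher and 0 lower (median 0.31) and 1 of 12 Pcdha genes higher and 0 lower (median -0.01). The Pcdhg median was 0.90 under EtOH and 0.96 under EtOH + ABT-888, with 15 genes higher and 2 lower in both. No Pcdha gene was on the same side in all 11 mice. The 18 Pcdhga and Pcdhgb genes, whose promoters are the ones chosen neuron by neuron, were all above 0 in Control mice, from 0.08 to 1.48, and 13 of them passed the test. In a fit that pairs the libraries of each mouse (the mouse as a block) Pcdhga1 (adjusted p = 0.0264) and Pcdhga3 (adjusted p = 0.0336) passed too.

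Pcdhga9 had the largest Pcdhg difference towards TRAP in Control mice. It read 44.8, 38.0 and 44.5 CPM in TRAP and 15.5, 14.9 and 14.7 CPM in total-RNA. The pools did not overlap, and the log2 fold change was 1.48 ± 0.11 (SE, adjusted p = 1.13e-06), with 1.48 ± 0.21 under EtOH and 1.39 ± 0.20 under EtOH + ABT-888. Among the other Pcdhga and Pcdhgb genes, Pcdhgb5 had 1.19 ± 0.17, Pcdhga7 1.19 ± 0.17, Pcdhga8 1.18 ± 0.12, Pcdhga10 1.08 ± 0.12 and Pcdhgb6 0.97 ± 0.14 in Control mice, each on the log2 scale and each called in all 3 treatments. Exons of Pcdhga10 are overlapped on the other strand by another annotated gene, and the strand setting of the counting is not given in the sources used here.

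The 3 C-type genes of the gamma array parted. Pcdhgc5 read 266, 313 and 315 CPM in TRAP and 167, 170.4 and 156 CPM in total-RNA of Control mice. Pcdhgc3 read 19.3, 15.7 and 22.7 CPM in TRAP and 67.2, 73.6 and 59.5 CPM in total-RNA. Pcdhgc4, the C-type isoform needed for survival of interneurons, read 3.31, 5.26 and 7.39 CPM in TRAP and 11.0, 13.8 and 11.2 CPM in total-RNA. The inhibitory neuron markers summed higher in TRAP, as given above, and their part in the value of Pcdhgc4 was not tested. In none of the 3 C-type genes did the pools overlap in Control mice, and Pcdhgc5 was higher in TRAP while the other two were lower. The log2 fold changes were 0.84 ± 0.09 (SE, adjusted p = 1.5e-05), -1.81 ± 0.14 (adjusted p = 1.46e-06) and -1.15 ± 0.24 (adjusted p = 0.00163). Each gene kept its direction and its call under EtOH and under EtOH + ABT-888, with -1.68 and -1.55 for Pcdhgc3, -0.82 and -0.76 for Pcdhgc4 and 1.00 and 0.96 for Pcdhgc5. Of all Pcdhg reads in Control mice, Pcdhgc5 took 37.7% ± 3.2 in TRAP and 32.0% ± 0.13 in total-RNA, and Pcdhgc3 took 2.01% to 2.82% in TRAP and 12.2% to 13.8% in total-RNA (errors are SD, n = 3).

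The C-type genes of the alpha array did not follow those of the gamma array. Pcdhac2, which took 45.7% ± 1.3 of the Pcdha reads in Control TRAP and 49.9% ± 2.0 in Control total-RNA, read 51.1, 55.6 and 57.5 CPM in TRAP and 60.1, 69.3 and 55.0 CPM in total-RNA. Its pools overlapped, with a log2 difference of -0.18 (adjusted p = 0.174). Pcdhac1 had a difference of -0.07 (adjusted p = 0.798) in Control mice and was lower in TRAP under EtOH, by -0.90 ± 0.30 (adjusted p = 0.0236).

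**Figure D2:**
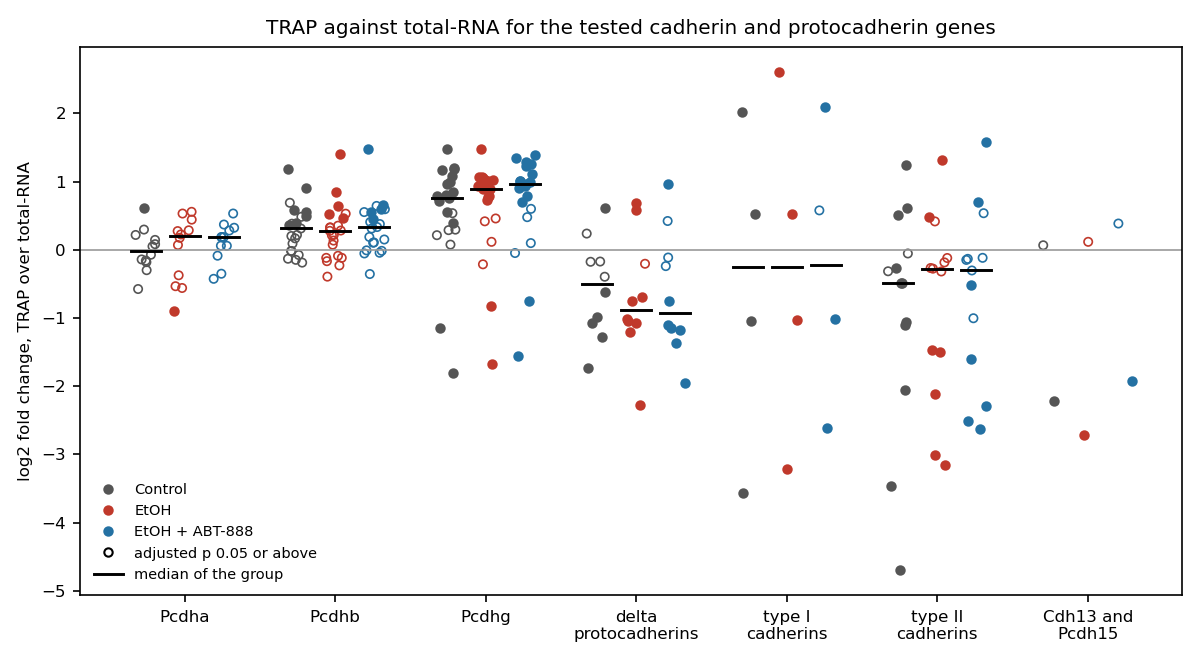
Log2 fold change of TRAP over total-RNA (y axis) for the 83 tested genes, by family (x axis) and treatment (colour), with filled points for adjusted p under 0.05, open points for the others and bars at the median of each family. The Pcdhg genes sit mostly above 0 apart from Pcdhgc3 and Pcdhgc4, while the delta protocadherins and the type II cadherins sit mostly below.

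Among the type II cadherins 3 of 13 were higher in TRAP of Control mice and 8 lower. Cdh8, which marks subsets of cortical and striatal neurons, was the highest of them. It read 217, 204 and 189 CPM in TRAP and 89.4, 77.7 and 88.7 CPM in total-RNA. The log2 fold change was 1.24 ± 0.09 (adjusted p = 1.09e-06), and TRAP was above total-RNA in all 11 mice, by 1.02 to 1.97 on the log2 scale. Striatal projection neuron markers moved the same way, as given above, and their part in the value of Cdh8 was not tested. At the other end stood Cdh5 (VE-cadherin), the adhesion molecule of endothelial junctions. It read 0.747, 0.111 and 0.398 CPM in TRAP, from 2 to 7 reads a library, and 9.39, 9.81 and 9.15 CPM in total-RNA, a log2 fold change of -4.70 ± 0.37 (adjusted p = 1.41e-06). The 6 other endothelial and mural markers summed to 11.6 to 24.8 CPM in Control TRAP and 131 to 155 in Control total-RNA.

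Cdh19, a cadherin of neural crest and glial cells, was lower in TRAP by -3.47 ± 0.33 (adjusted p = 5.62e-06) and Cdh20 by -2.05 ± 0.22 (adjusted p = 1.25e-05). Both were lower in TRAP in all 11 mice and called in all 3 treatments. Cdh10 was lower by -1.11 ± 0.13 (adjusted p = 2.73e-05) in Control mice and by -0.52 (adjusted p = 0.0194) under EtOH + ABT-888, and had -0.12 (adjusted p = 0.613) under EtOH. Cdh9 was higher in TRAP by 0.62 ± 0.10 (adjusted p = 0.0003) in Control mice and by 0.70 (adjusted p = 0.0111) under EtOH + ABT-888, with 0.42 (adjusted p = 0.233) under EtOH. Cdh18 was lower in TRAP in all 11 mice. Its log2 fold change was -0.48 (adjusted p = 0.00279) in Control mice, -0.32 (adjusted p = 0.0657) under EtOH and -0.30 (adjusted p = 0.242) under EtOH + ABT-888. In the paired fit by mouse both treated groups passed (adjusted p = 0.0389 and 0.0377). Cdh11 had a small difference, -0.27 ± 0.10 (adjusted p = 0.0321) in Control mice, and passed in neither of the other treatments.

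The 4 type I cadherins tested went both ways. Cdh2, the N-cadherin of the synapse and also of astrocytes, read 76.3, 61.4 and 90.4 CPM in TRAP and 167, 145 and 152 CPM in total-RNA of Control mice. Its log2 fold change was -1.04 ± 0.13 (adjusted p = 4.46e-05), and -1.02 and -1.01 under the other treatments. Cdh1 (E-cadherin), the epithelial member, was lower by -3.57 ± 0.37 (adjusted p = 1.08e-05) from 3 to 8 reads in a Control TRAP library. Cdh4 (R-cadherin) was higher by 0.53 ± 0.17 (adjusted p = 0.0195) in Control mice and by 0.52 (adjusted p = 0.0273) under EtOH. Under EtOH + ABT-888 it had 0.58 (adjusted p = 0.14), which passed with the mouse as a block (adjusted p = 0.00862). Cdh15 (M-cadherin), best known from muscle, was higher under each treatment, by 2.02, 2.61 and 2.10, at a low level of 2.86 ± 0.21 CPM in Control TRAP.

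The delta protocadherins were mostly lower in TRAP, with 1 of 10 higher and 5 lower in Control mice, 2 and 7 under EtOH, and 1 and 6 under EtOH + ABT-888. Pcdh9 read 129.9, 146 and 175 CPM in TRAP and 300.1, 317 and 318 CPM in total-RNA of Control mice. Its pools stood apart by -1.07 ± 0.11 (adjusted p = 8.55e-06). Pcdh7 was lower by -0.62 (adjusted p = 6.84e-05), Pcdh19, the X-linked gene of an epilepsy of girls, by -1.29 (adjusted p = 0.000711) and Pcdh20 by -0.99 (adjusted p = 5.67e-05). Pcdh17, known from corticostriatal synapses, and Pcdh1 were higher in TRAP in all 11 mice. Pcdh17 read 269, 265 and 222 CPM in TRAP and 162, 156 and 169.9 CPM in total-RNA, higher by 0.61 ± 0.09 (adjusted p = 0.000174). Pcdh1 had 0.24 (adjusted p = 0.0824) in Control mice, 0.58 (adjusted p = 0.0357) under EtOH and 0.42 (adjusted p = 0.284) under EtOH + ABT-888, and the paired fit called it also in Control (adjusted p = 0.0435) and EtOH + ABT-888 mice (adjusted p = 0.00537). Pcdh10, with the most reads of the 92 genes, did not pass in any treatment, at -0.18, -0.21 and -0.11, although the paired fit called it in Control mice (adjusted p = 0.0458). Pcdh8, lower in TRAP in all 11 mice, had -0.40 (adjusted p = 0.0728) in Control mice, and the paired fit called it there too (adjusted p = 0.0192). Pcdh15, a protocadherin of hair cells and of oligodendrocyte precursors, was lower by -2.22 ± 0.18 (adjusted p = 1.71e-06), and the 3 markers of oligodendrocyte precursors summed to 8.53 to 21.98 CPM in Control TRAP and 97.5 to 109 in Control total-RNA. The part of glial and vascular RNA in these differences was not tested.

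The comparison of EtOH with Control within a pool asks what 4 days of ethanol changed. In total-RNA 3 of the 83 genes rose and 7 fell, which is 12.05% of them, beside 9.04% of all genes higher, 8.60% lower and 17.6% called. Clustered and non-clustered genes were both among them, with 1 higher and 2 lower of 54 clustered genes and 2 higher and 5 lower of 29 non-clustered genes. The median log2 fold change of the 83 genes was -0.01, beside 0.00 over all genes. With 1 estimate of the spread over all 22 libraries, none of the 83 genes passed in total-RNA, and 151 of all 14072 genes did, against 2482 in the fit of the 2 groups alone. The 6 microglia markers summed to 247 to 259 CPM in Control and 94.5 to 149 in EtOH total-RNA, with Cx3cr1, P2ry12, Tmem119 and Csf1r past the test. Single neuronal markers passed as well. The excitatory markers Neurod6 (-0.99, adjusted p = 0.00159) and Nrgn (-0.58, adjusted p = 0.0139) were lower, while Slc17a7 (-0.12, adjusted p = 0.489), Tbr1 (-0.03, adjusted p = 0.879) and Camk2a (0.20, adjusted p = 0.215) did not pass. Of the 6 striatal markers Ppp1r1b alone passed, higher (0.67, adjusted p = 0.00996), and their sums of 810 to 1025 CPM in Control and 977 to 1351 in EtOH total-RNA overlapped. The 6 inhibitory markers summed to 802 to 865 CPM in Control and 915 to 1004 in EtOH total-RNA, without overlap, and Gad2 (0.40, adjusted p = 0.0291) was the 1 of them that passed. The part of the cell types sampled in the changes of the cadherin genes was not tested.

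Cdh11 (OB-cadherin), a type II cadherin of cortical neurons and of mesenchymal cells at chr8:102632095-102785642, had the smallest p. It read 120.2, 118 and 117 CPM in Control total-RNA and 74.4, 55.6, 64.3 and 71.1 CPM in EtOH total-RNA. The groups did not overlap, and Cdh11 fell by 0.83 ± 0.11 on the log2 scale (SE, adjusted p = 0.0007), a call kept in each of the 7 fits that left out a library. In TRAP it read 111, 97.7 and 89.7 CPM in Control and 55.2, 48.2, 65.4 and 54.4 CPM in EtOH mice, again with no overlap, a log2 fold change of -0.82 ± 0.15 (adjusted p = 0.014). In EtOH + ABT-888 mice it read 77.7, 71.5, 39.2 and 54.6 CPM in TRAP and 91.4, 72.0, 34.1 and 71.3 CPM in total-RNA, all below the Control libraries of the same pool, at -0.70 (adjusted p = 0.218) and -0.81 (adjusted p = 0.165). With the single estimate of the spread its adjusted p in total-RNA was 0.0814.

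Pcdh20, a delta protocadherin at chr14:88464743-88471396, read 31.3, 37.3 and 33.9 CPM in Control total-RNA, 18.4, 16.04, 17.8 and 25.1 CPM in EtOH, and 18.4, 21.1, 16.6 and 21.2 CPM in EtOH + ABT-888. Both treated groups lay wholly below Control. It fell by 0.82 ± 0.15 (adjusted p = 0.00409) and by 0.82 ± 0.14 (adjusted p = 0.047), and was the only one of the 83 genes called in total-RNA of EtOH + ABT-888 mice. That call was lost in 5 of the 7 fits that left out a library. In TRAP it had -1.03 under both treatments, with adjusted p = 0.129 and 0.277. The other delta protocadherin called, Pcdh8 (arcadlin), made by active neurons and known to draw N-cadherin from the surface, went the other way. Pcdh8 read 19.5, 14.6 and 21.04 CPM in Control and 39.7, 29.9, 23.6 and 30.3 CPM in EtOH total-RNA and rose by 0.75 ± 0.18 (adjusted p = 0.0135). In TRAP its EtOH libraries read 24.7, 12.9, 8.16 and 16.4 CPM and overlapped Control (log2 fold change 0.14, adjusted p = 0.826). In EtOH + ABT-888 TRAP Pcdh8 read 7.14, 9.01, 10.6 and 10.5 CPM, all below the Control TRAP libraries, at 11.6 to 16.3 CPM (-0.59, adjusted p = 0.385).

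Among the type II cadherins of total-RNA, Cdh19 rose from 22.4, 12.9 and 15.9 CPM in Control to 24.0, 31.2, 31.9 and 37.6 CPM in EtOH (0.88 ± 0.19, adjusted p = 0.0101). Cdh6, Cdh9 and Cdh20 fell. Cdh6 read 31.1, 32.2 and 26.1 CPM in Control and 16.9, 20.5, 24.0 and 18.9 CPM in EtOH (-0.57 ± 0.14, adjusted p = 0.0177), and Cdh9 read 32.0, 33.6 and 36.0 CPM in Control and 19.2, 25.0, 29.7 and 25.6 CPM in EtOH (-0.45 ± 0.14, adjusted p = 0.0479). Cdh20 fell by 0.54 ± 0.14 (adjusted p = 0.0226). The groups of each of the 4 genes stood apart in total-RNA, although the calls of Cdh9 and Cdh20 were lost in 5 of the 7 fits that left out a library and those of Cdh6 and Cdh19 in 2. In TRAP none of them passed, and the EtOH libraries of Cdh6, which read 12.1, 10.2, 22.4 and 26.7 CPM, covered the range of Control.

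Promoter sequence was at hand for 5 of the 10 genes called in EtOH total-RNA, from RefSeq on GRCm38.p6, and the windows of 4 of them are shown. The windows hold the 250 bases before the start of transcription, 5′ to 3′ on the gene's strand. The first pair is shown because the genes are both delta protocadherins of chromosome 14 and moved in opposite directions. Capitals mark CCAAT and TATAAA on either strand. The Pcdh20 window is chr14:88471397-88471646 and the Pcdh8 window is chr14:79771313-79771562, both on the minus strand.
Pcdh20: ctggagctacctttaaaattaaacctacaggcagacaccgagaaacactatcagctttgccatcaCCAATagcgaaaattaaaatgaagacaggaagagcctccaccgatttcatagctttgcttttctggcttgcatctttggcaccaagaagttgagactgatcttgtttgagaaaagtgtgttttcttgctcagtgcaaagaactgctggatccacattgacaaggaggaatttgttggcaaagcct
Pcdh8: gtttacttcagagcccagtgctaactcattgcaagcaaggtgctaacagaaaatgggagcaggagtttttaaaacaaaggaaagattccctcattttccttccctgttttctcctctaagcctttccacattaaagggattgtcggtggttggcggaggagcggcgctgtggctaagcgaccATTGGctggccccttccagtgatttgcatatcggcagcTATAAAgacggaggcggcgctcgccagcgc

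Pcdh8 held TATAAA at position -30 from its start and CCAAT on the other strand at -68, and Pcdh20 held the same letters at -185 and no TATA box. On either strand the CCAAT box was found in 33.9% and the TATA box in 12.4% of 32851 promoter windows of this length. The second pair is shown because Cdh6 and Cdh9 lie on chromosome 15, fell together in total-RNA and share an unbroken run of 15 bases, marked in capitals. Cdh10, Cdh12 and Cdh18 lie on chromosome 15 too and were not called in EtOH total-RNA. The Cdh6 window is chr15:13173676-13173925 on the minus strand, and the Cdh9 window, chr15:16728665-16728755 on the plus strand, stops after 91 bases, where GENCODE has an earlier start of the gene.
Cdh6: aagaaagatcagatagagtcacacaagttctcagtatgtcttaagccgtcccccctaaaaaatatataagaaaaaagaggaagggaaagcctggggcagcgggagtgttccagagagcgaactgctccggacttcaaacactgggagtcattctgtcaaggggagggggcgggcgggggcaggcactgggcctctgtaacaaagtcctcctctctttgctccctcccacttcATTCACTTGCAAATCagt
Cdh9: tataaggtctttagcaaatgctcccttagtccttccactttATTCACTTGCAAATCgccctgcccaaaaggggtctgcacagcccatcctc

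The run begins at -18 in Cdh6 and at -209 from the RefSeq start in Cdh9. It was taken as the longest run that these windows share, so both hold it by choice. None of the other windows among the 32851 held it on either strand, which is a count and no test. The 9 other pairs among the 5 promoters shared at most 9 bases in a row. The Cdh6 and Cdh9 fits share their samples, so their changes are not independent. The half-site of the glucocorticoid receptor, TGTTCT, was found on neither strand of the 4 sequences, beside 16.1% of all windows. Nor was the cAMP response element, searched as TGACGTCA, which 1.55% of all windows held. The same holds for the E-box, searched as CACGTG and held by 6.02%. These shares are for windows of 250 bases, while only 91 bases of Cdh9 were searched. The first pair of motifs and the shared run were picked after the sequences had been read, and a match is a description of letters.

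The clustered genes called in total-RNA were Pcdhgc5, Pcdhgc4 and a gene of the alpha array. Pcdhgc5 read 167, 170.4 and 156 CPM in Control and 116, 119.5, 131 and 139 CPM in EtOH total-RNA. It fell by 0.38 ± 0.10 (adjusted p = 0.023), and its share of the Pcdhg reads was 25.7% ± 3.0 in EtOH and 27.0% ± 4.6 in EtOH + ABT-888 total-RNA (SD, n = 4), against 32.0% ± 0.13 in Control. Pcdhgc4 rose by 0.60 ± 0.18 (adjusted p = 0.0355), although the lowest EtOH library, at 13.6 CPM, lay under the highest Control library, at 13.8. The inhibitory neuron markers also summed higher in these EtOH libraries, and their part in the value of Pcdhgc4 was not tested. Pcdha11 (ENSMUSG00000102206, one of 2 rows that carry this symbol) fell by 0.91 ± 0.28 (adjusted p = 0.0385) from 5.73 ± 1.8 CPM in Control to 3.05 ± 0.91 in EtOH total-RNA. Each of these 3 calls was lost in 4 or 5 of the 7 fits that left out a library. Over the 83 genes, leaving out the Control library of mouse 4 left 3 calls, those of Cdh11, Pcdh20 and Pcdha11, and leaving out the EtOH library of mouse 9 gave 17.

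In TRAP libraries 1 of the 83 genes rose and 2 fell with EtOH, beside 2.77% of all genes higher, 2.47% lower and 5.24% called. Beside Cdh11, these were a gene of the gamma array and a C-type gene of the alpha array. Pcdhga3 read 28.7, 31.5 and 22.1 CPM in Control and 44.2, 50.1, 60.4 and 39.3 CPM in EtOH, with no overlap, and rose by 0.85 ± 0.20 (adjusted p = 0.031). Pcdhac1 read 5.02, 5.87 and 4.32 CPM in Control and 2.11, 2.09, 1.87 and 2.38 CPM in EtOH and fell by 1.24 ± 0.33 (adjusted p = 0.0477). In EtOH + ABT-888 mice Pcdhga3 had 0.75 (adjusted p = 0.254) and Pcdhac1 -0.74 (adjusted p = 0.459). Of the 7 fits that left out a library, 5 kept the call of Cdh11, 2 that of Pcdhga3 and 1 that of Pcdhac1. Without either of 2 Control TRAP libraries, those of mouse 1 and mouse 4, none of the 83 genes passed, and without the EtOH library of mouse 9, 7 passed. DESeq2 called 8. In the same libraries 1 of the 6 striatal markers passed, Drd2 (-0.56, adjusted p = 0.0406), with sums of 6332 to 8189 CPM in Control and 6258 to 7824 in EtOH TRAP. Of the 6 microglia markers P2ry12 alone passed (-3.46, adjusted p = 0.0113), with sums of 13.2 to 27.6 CPM and 4.92 to 41.9. Both sums overlapped. Of the excitatory markers Neurod6 was lower (-1.68, adjusted p = 0.0116), while Tbr1 (-1.10, adjusted p = 0.138), Slc17a7 (-0.77, adjusted p = 0.19), Nrgn (-0.59, adjusted p = 0.0908) and Camk2a (0.47, adjusted p = 0.0541) did not pass. The part of these cells was not tested.

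**Figure D3:**
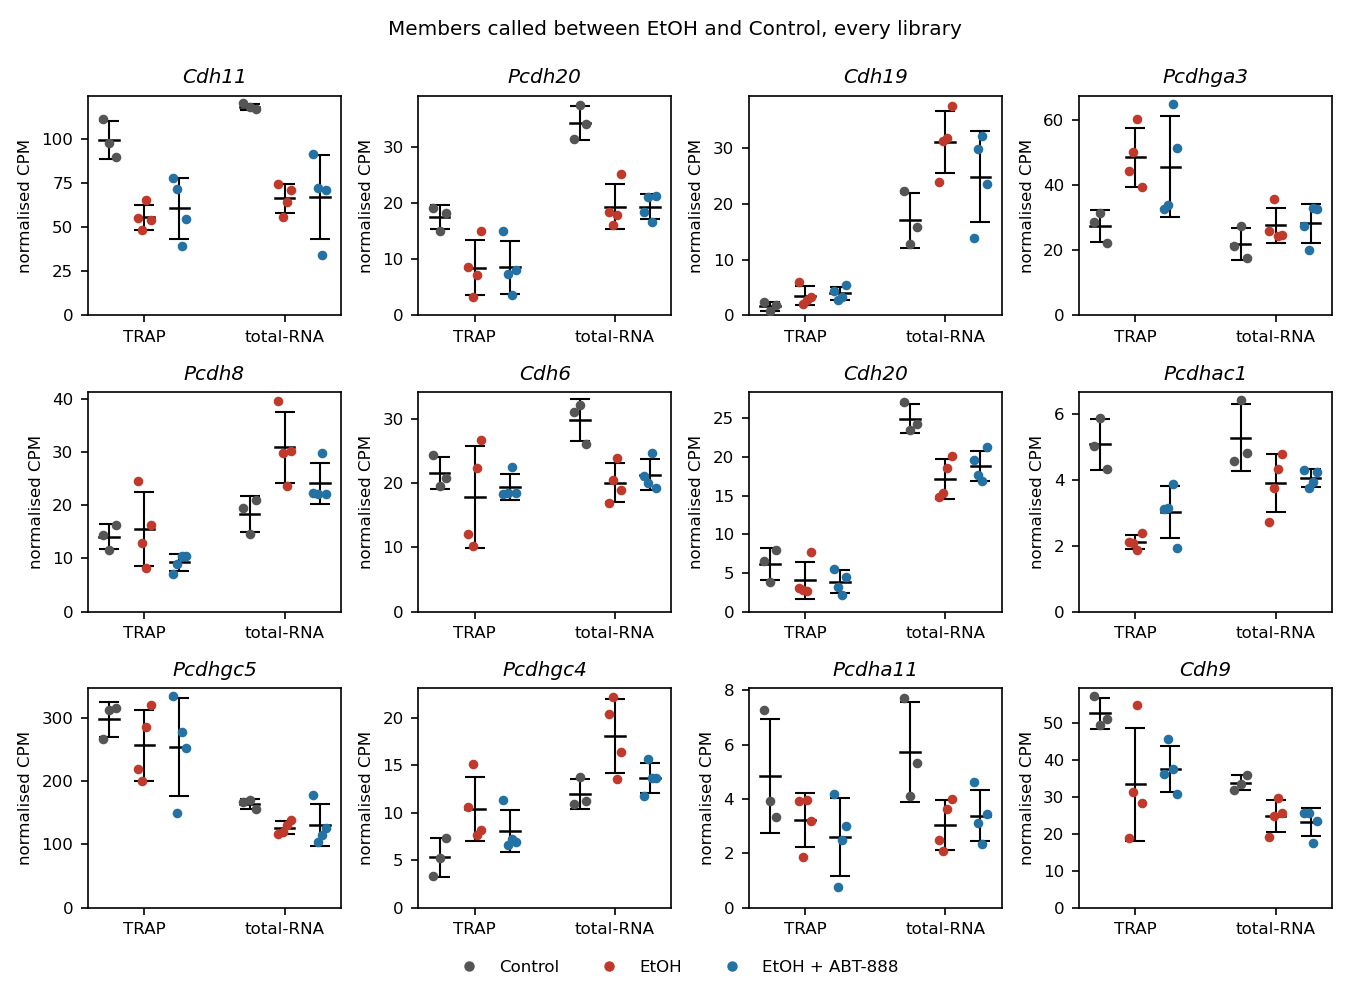
Normalised CPM (y axis) in every TRAP and total-RNA library (x axis) for the 12 members called against Control in either pool, with points for mice coloured by treatment, lines at the group mean and bars for the SD. The Pcdha11 panel is the row ENSMUSG00000102206. Cdh11 lies below Control in every treated library of both pools, and Pcdh8 lies above Control in every treated library of total-RNA, overlaps Control in EtOH TRAP and lies below it in EtOH + ABT-888 TRAP.

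With EtOH + ABT-888 in TRAP none of the 83 genes passed (10 had an unadjusted p under 0.05), beside 0.476% of all genes. DESeq2 called 2. The smallest p was that of Cdh5, which read 2.71, 1.35, 2.69 and 3.55 CPM in EtOH + ABT-888 TRAP and stood above the Control range given above (2.72 ± 0.70, adjusted p = 0.124). In total-RNA it read 11.5, 17.9, 20.7 and 10.2 CPM, also above Control without overlap (0.68 ± 0.24, adjusted p = 0.22). In TRAP the 6 oligodendrocyte markers summed to 318 to 1458 CPM in EtOH + ABT-888 and 339 to 441 in Control, and the 6 endothelial and mural markers to 15.5 to 33.5 and 11.6 to 24.8. In total-RNA the endothelial and mural markers summed to 107 to 148 CPM in EtOH + ABT-888 and 131 to 155 in Control. Each of these ranges overlapped Control, and the part of vascular RNA in the values of Cdh5 was not tested. In total-RNA Pcdh20 was the 1 gene that passed, lower, beside 0.0853% of all genes lower and 0.263% called. The 6 microglia markers summed to 85.7 to 199 CPM in the same EtOH + ABT-888 total-RNA libraries and 247 to 259 in Control, without overlap, and their part in the value of Pcdh20 was not tested. The direct comparison of EtOH + ABT-888 with EtOH called 0% of all genes in TRAP and 0% in total-RNA, so none of the 83 (edgeR), with 1 and 4 of them at an unadjusted p under 0.05. The fits by DESeq2 also called none of the 83 in these comparisons. Median absolute log2 differences between the treated groups were 0.12 in TRAP and 0.09 in total-RNA over the 83 genes, beside 0.15 and 0.10 over all genes.

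Whether EtOH moved a gene differently in TRAP and in total-RNA was tested as an interaction. None of the 83 genes passed (3 had an unadjusted p under 0.05), beside 0.0213% of all genes, and DESeq2 called none of the 83 either. The smallest p was that of Cdh10, which read 33.1, 32.4 and 45.5 CPM in Control TRAP and 45.4, 72.0, 71.2 and 45.3 CPM in EtOH TRAP, against 78.3, 75.3 and 83.6 CPM in Control and 51.7, 63.7, 68.1 and 67.8 CPM in EtOH total-RNA. The difference of the differences was 0.99 ± 0.25 (adjusted p = 0.431).

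The log2 fold changes are also given by place along the gamma array. This order, and the split of the genes into the first 6 and the other 12, were chosen after the values had been seen and are a description with no test. In order from the 5′ end, the first 6 tested genes are Pcdhga1, Pcdhga2, Pcdhga3, Pcdhgb1, Pcdhga4 and Pcdhgb2. In EtOH TRAP their log2 fold changes were 0.78, 0.41, 0.85, 0.41, 0.30 and 0.53, of which only Pcdhga3 passed the test. The other 12 Pcdhga and Pcdhgb genes lay between -0.32 and 0.12. Spearman's rho between the place of the 18 genes and their log2 fold change was -0.69 for EtOH and -0.70 for EtOH + ABT-888 in TRAP, and -0.65 and -0.52 in total-RNA. Over all 21 Pcdhg genes, with the C-type genes, it was weaker, at -0.44 and -0.46 in TRAP and -0.45 and -0.36 in total-RNA. These 4 comparisons share the Control libraries of their pool, and the 18 genes share last exons and lie next to each other. Of the first exons of the Pcdhg genes, those of Pcdhga4, Pcdhgb1 and Pcdhgb2 hold the largest shares of sequence found in another gene.

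The values of single libraries use the same genes and the same Control mean again and add no separate evidence. Set against the mean of the Control libraries, they gave rho from -0.73 to -0.58 in EtOH TRAP and from -0.78 to -0.33 in EtOH + ABT-888 TRAP. Control TRAP libraries, each set against the mean of the other two, gave rho from -0.33 to 0.32, so the ranges of Control and EtOH + ABT-888 TRAP touch at -0.33. In total-RNA rho ran from -0.58 to -0.38 in EtOH, from -0.70 to -0.10 in EtOH + ABT-888 and from -0.06 to 0.17 in Control. The mean log2 ratio of the first 6 genes was 0.19 to 0.84 in the 4 EtOH TRAP libraries, 0.13 to 0.87 in EtOH + ABT-888 TRAP and -0.11 to 0.18 in Control TRAP. In total-RNA it was 0.07 to 0.36 in EtOH, -0.02 to 0.28 in EtOH + ABT-888 and -0.06 to 0.10 in Control. The EtOH TRAP libraries lay just above Control, and the other 3 treated groups overlapped the Control range of their pool. Over the 21 Pcdhb genes rho was 0.04 in EtOH TRAP and 0.16 in EtOH total-RNA, and over the 12 Pcdha genes, Pcdhac1 and Pcdhac2 among them, -0.34 and -0.51. With its C-type genes kept in, the gamma array was no further from 0 than the alpha array in EtOH total-RNA.

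**Figure D4:**
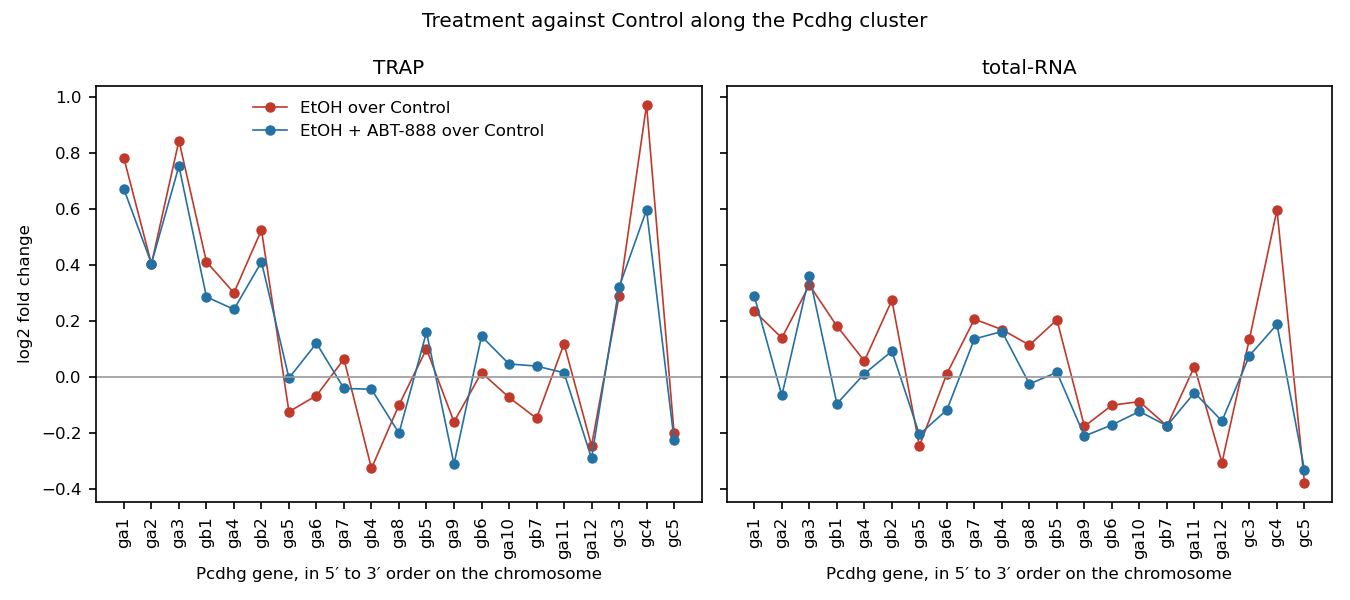
Log2 fold change against Control (y axis) for the 21 Pcdhg genes in their order along the chromosome (x axis, names without Pcdh), in TRAP on the left and total-RNA on the right, with EtOH in red and EtOH + ABT-888 in blue. The first 6 genes lie between 0.24 and 0.85 in TRAP, the next 12 lie between -0.32 and 0.16, and the C-type genes Pcdhgc4 and Pcdhgc5 lie on opposite sides.

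Other genes of cadherin signalling were taken from lists, whose counts stand beside 29.5% of all genes higher in TRAP of Control mice, 30.4% lower and 59.9% called. Of 10 catenins and other binders of the cadherin tail, 3 were higher and 5 lower in TRAP of Control mice. Of 14 tested members of the wider superfamily, such as the giant Fat and Dachsous cadherins and the calsyntenins, 3 were higher and 7 lower, led by Fat1 (-1.56) and Clstn2 (-1.24). Of 11 tested regulators of promoter choice in the protocadherin arrays, 2 were higher and 5 lower, with Ctcf, the looping protein itself, at 0.61 ± 0.09 (adjusted p = 0.000112) and the cohesin subunit Stag1 at -0.55 ± 0.10 (adjusted p = 0.000504). Of 13 genes of cadherin shedding and tail signalling 4 were higher and 5 lower, led by Cyfip1 (-1.36) and Ptk2 (-0.78).

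With EtOH in TRAP, Dchs1 and Dchs2, ligands of the Fat cadherins, rose by 0.84 ± 0.21 (adjusted p = 0.0398) and 1.08 ± 0.27 (adjusted p = 0.0424). Ptk2b, a kinase held in check by clustered protocadherin tails, rose by 0.56 ± 0.12 (adjusted p = 0.0234), the actin regulator Wasf1 rose by 0.60 ± 0.15 (adjusted p = 0.0431), and Ctnna1 (alpha-E-catenin) fell by 0.75 ± 0.20 (adjusted p = 0.0453). In total-RNA Dchs2 rose by 1.22 ± 0.25 (adjusted p = 0.00659), Ptk2b by 0.40 ± 0.09 (adjusted p = 0.0125), Abi1 by 0.53 ± 0.10 (adjusted p = 0.00532), Cdhr1 by 1.01 ± 0.25 (adjusted p = 0.018) and Wapl, which takes cohesin off DNA, by 0.35 ± 0.11 (adjusted p = 0.0439). Fat3 fell by 0.51 ± 0.11 (adjusted p = 0.0089), Clstn3 by 0.39 ± 0.10 (adjusted p = 0.0209), Adam17 by 0.52 ± 0.13 (adjusted p = 0.0204) and Pkp4 by 0.40 ± 0.09 (adjusted p = 0.0101). In TRAP this was 5 of the 48 genes tested on these lists, beside 5.24% of all genes called, and in total-RNA 9 of the 48, beside 17.6%, so the share in total-RNA lay near that of all genes. None of the 48 passed in EtOH + ABT-888 against Control in either pool. Over all genes, the calls of EtOH against Control in TRAP went from 737 to between 84 and 112 when a Control library was left out. In total-RNA they went from 2482 to 151 with the single fit over 22 libraries. The calls of the listed genes under those fits are not given here.

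The variable first exons of clustered genes resemble each other, which bears on how reads were assigned. Of the windows of 50 bases in the first exon of a Pcdha gene, a median of 14.2% was found in a transcript of another gene, against 4.48% for Pcdhb and 1.00% for Pcdhg genes. The highest shares were 39.5% for Pcdhga4 and 23.4% for Pcdha7. Among the Pcdhg genes Pcdhgb1 (16.9%) and Pcdhgb2 (15.8%) came next, so the 3 highest are all among the first 6 genes of the array, and the part of shared reads in the values of those genes was not tested. The first exons of Pcdhga1, Pcdhga2 and Pcdhga3 had 0% to 1.02%. The treatment of reads that match several places is not given in the sources used here. Pcdhb21 and Pcdhb22 share exonic bases.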

How the data were processed

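The authors deposited a table of raw counts per Ensembl gene for 22 libraries, made from reads of the CORALL total RNA-seq kit after rRNA depletion, aligned with STAR to mm10 and counted with featureCounts. Tool versions, strand setting and treatment of multi-mapping reads are not given in the sources used here. TRAP and total-RNA libraries with the same animal number in the labels come from the same mouse and are paired (correlation of deviations from the group mean 0.102 to 0.622 in the 11 pairs and -0.386 to 0.148 between different mice of a group). The TRAP library of mouse 6 correlated more with the total-RNA of mouse 11 (0.14) than with its own (0.117).

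Genes with at least 500 counts over all libraries and reads in at least 3 were kept (14072 genes). Each pair of groups was fitted alone, as in the study's pairwise edgeR analysis, with TMM factors. The quasi-likelihood test of edgeR 4.0.16 in R 4.3.3 took the place of exactTest, the study's own test, and p-values were adjusted by Benjamini-Hochberg over all 14072 genes. The interaction was fitted over all 22 libraries, with the contrast taken between the Control and EtOH groups of both pools. DESeq2 1.42.0 was an alternative, with the study's exactTest, RLE factors, no filter, a single fit, adjusted p under 0.01, a replicate block and leaving out each library. The tests were checked on simulated counts. Levels are CPM with TMM factors over 22 libraries, and log2 ratios between single libraries add 0.1 CPM. Errors after log2 fold changes are standard errors.

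In each comparison the 8 called members with the smallest p in each direction were named, beside a fixed list of 24 genes. Of the wider lists, genes called between treatments and those with the smallest p between pools were named. The members and lists were chosen with earlier results of these data known. A row of matching symbol, Pcdhgb8, is not protein-coding in GENCODE and was left out. Promoter windows came from RefSeq, where 22 of 32 members outside chromosome 18 had an entry, and none is printed from that chromosome. The result of 1 excitatory marker gene is not reported here.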

Additional observations from a re-analysis of the deposited data

Results flagged for a closer look

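Libraries of a group of 4 were looked over for 42 members, 33 named as called and the rest from the fixed list of 24 genes, and 13 of 168 gene and group pairs held a library that stood apart from the others of its group by Dixon's test, where chance gives about 1 in 20. In EtOH TRAP the library of mouse 8 was highest for Pcdhga9, at 52.1 CPM against 34.6 in the next, and for Pcdhga7, at 52.2 against 35.7, and lowest for Pcdh18, at 0.737 against 1.31. In the same group mouse 2 was highest for Cdh1, at 1.38 against 0.272, and mouse 9 for Cdh20, at 7.68 against 3.06.

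In EtOH + ABT-888 TRAP the library of mouse 10 was highest for Pcdhga2, at 42.2 CPM against 30.6, and for Cdh6, at 22.5 against 18.5. Mouse 3 was highest there for Pcdhgc4, at 11.4 against 7.28, and for Pcdhb1, at 1.15 against 0.0623, a gene under the filter. In EtOH total-RNA mouse 5 was highest for Pcdhga3, at 35.7 against 26.0. In EtOH + ABT-888 total-RNA mouse 10 was highest for Pcdhga2, at 18.01 against 13.3, and for Pcdh8, at 29.9 against 22.3, and mouse 3 for Cdh4, at 35.2 against 20.8. In Pcdhga2 the same mouse stood apart in both pools. No cause was tested.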

How the results depend on the processing

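The numbers of cadherin and protocadherin genes called between TRAP and total-RNA were 46, 44 and 40 in Control, EtOH and EtOH + ABT-888 mice, and stayed within 1.5 times of these under every alternative run, with 42 to 48, 38 to 44 and 32 to 42 when a library was left out. With the mouse as a replicate block they were 52, 50 and 48, with 6, 6 and 8 calls gained and none lost, and the interaction with the replicate block still called 0. The other comparisons are between different mice and have no pairs.

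The counts against Control moved more, and the cause was not tested. In EtOH TRAP 3 genes were called, against 8 with DESeq2, 7 without the filter, 6 with exactTest, 7 in the single fit over 22 libraries, 0 at an adjusted p under 0.01 and 0 to 7 with a library left out. In EtOH + ABT-888 TRAP 0 were called, against 2 with DESeq2, 3 without the filter, 2 with exactTest, 1 in the single fit and 0 to 1 with a library left out. In EtOH total-RNA 10 were called, against 0 in the single fit, 2 at an adjusted p under 0.01 and 3 to 17 with a library left out. In EtOH + ABT-888 total-RNA 1 was called, against 4 with DESeq2, 2 without the filter, 3 with exactTest, 0 in the single fit, 0 at an adjusted p under 0.01 and 0 to 4 with a library left out, where leaving out a Control library or that of mouse 6 or 11 gave 0. EtOH + ABT-888 against EtOH and the interaction called 0 under each alternative run. Of the values of genes named by rule, 800 kept direction and call, 70 lost the call and 0 changed direction. The TRAP libraries, with 6570957 to 22002618 reads, limit what low genes such as Cdh1 and Cdh5 can show.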
